A study of Homo sapiens with 3 samples.

Results

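Replication origin licensing is the step in G1 phase that loads the MCM2 to MCM7 helicase onto DNA, so that each origin can fire in the following S phase. The origin recognition complex, with its ATPase subunit ORC1, marks the origin, CDC6 joins it, CDT1 brings the MCM ring, and geminin (GMNN) binds CDT1 and blocks further loading in S and G2 phase. Many of these genes are textbook targets of the E2F transcription factors, which act at the entry into S phase. The 10 genes described here, MCM2, MCM3, MCM4, MCM5, MCM6, MCM7, ORC1, CDC6, CDT1 and GMNN, were taken by name from the 23284 gene names listed for each library, and all 10 were found.

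The libraries came from 293T, a line derived from human embryonic kidney that grows fast in culture, in which dCas9-VP64 was expressed. This protein joins a catalytically dead Cas9, which a guide RNA directs to a DNA site that it does not cut, to the transcriptional activator VP64. All 3 groups expressed this activator and differed in the guide RNA, which was a mock guide, sgL1ASP #1 or sgL1ASP #3, the latter both aimed at the antisense promoter of the LINE-1 retrotransposon. There was 1 library per group, the expression was transient, and neither the share of transfected cells nor a clone is given in the sources used here. The comparison asks whether activating this promoter moves the mRNA of the licensing genes in a cell line whose growth and cell cycle the study examined.

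The values are FPKM, the fragments of a gene divided by its exon length and by the depth of the library, so that genes can be set side by side within a library. Values in sequence stand throughout for mock, sgL1ASP #1 and sgL1ASP #3, in this order. A single library per group allows no check against replicates, and p-values are therefore left out. The reads per library, estimated from the spacing of the lowest FPKM, numbered about 10400000, 10300000 and 8700000. The 95% intervals given with log2 ratios follow from these estimates and cover counting error only. The cell line is taken from the label, which markers alone cannot prove. Of 6 markers known in this line, 5 had FPKM of at least 1 in every library. Among them was vimentin (VIM) with 807, 904 and 862, while PAX2 was at 0.522, 0.654 and 0.658. The 5 markers of other cells (PTPRC, ALB, PECAM1, COL3A1 and HBB) summed to FPKM 0.935, 0.666 and 0.624, with PTPRC and HBB listed at 0 throughout.

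The promoters of the licensing genes are shown first for the E2F letters they share, which the choice of genes did not use. In the RefSeq promoter sequences, from 250 bases before to 50 bases after each start, the letters TTTCCCGC, TTTCGCGC, TTTGCCGC and TTTGGCGC were searched on both strands. They were found in 7 of the 8 licensing genes that have an entry, MCM2, MCM3, MCM6, MCM7, CDC6, CDT1 and GMNN, against 3.99% of all 27305 genes in the table. Counted by promoter, 7 of 11 held a match, against 3.31% of 35116. The entry of ORC1 held none of these letters, and MCM4 and MCM5 had no entry. The match nearest to the start of each gene is printed below with 6 bases on either side, read along the gene from 5′ to 3′, and the capitals mark the matched letters or their reverse complement.
MCM2: accactTTTCGCGCgaaacc
MCM3: ggaagtTTTCGCGCcggggt
MCM6: ggtttgGCGCGAAAtctcca
MCM7: gcgacgTTTCGCGCcaattt
CDC6: ttcggaTTTGGCGCgagcgc
CDT1: gcgcccGCGGGAAAtttggc
GMNN: gtcggtTTTGGCGCgctctc
Placed by their letters on GRCh37, the sequence also known as hg19, the windows lie at chr3:127317250-127317269 (plus strand) for MCM2, chr6:52149531-52149550 (minus strand) for MCM3, chr2:136634086-136634105 (minus strand) for MCM6 and chr7:99699016-99699035 (minus strand) for MCM7. Those of the loaders lie at chr17:38444132-38444151 (plus strand) for CDC6 and chr16:88870156-88870175 (plus strand) for CDT1, and that of GMNN at chr6:24775555-24775574 (plus strand). Counted from the first transcribed base of the RefSeq entry as 0, the first capital letter stands at 2 in MCM2, 7 in CDC6, -4 in MCM3 and -9 in MCM7, close to the start, and at -35 in CDT1, -80 in GMNN and -86 in MCM6. In all, 13 matches fell at 10 separate places, since in MCM2 and MCM6 a match on one strand overlaps a match on the other. The CCAAT box, also searched on both strands, was in 6 of the 8 genes and in 39.7% of all genes. These letters are a description of the sequence, and binding was not measured.

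All 10 genes were well expressed, and their levels differed far more between genes than between libraries. Because each library is a mixture of cells in all cell cycle phases, fewer cells in a phase and less RNA per cell cannot be told apart. Their median FPKM was 92.5, 93.6 and 92.9, against a median of 12.2 in each library for all genes with mean FPKM of at least 1. From the lowest to the highest library, FPKM of a licensing gene spanned between 1.01-fold and 1.11-fold, with a median of 1.04-fold. For 4554 genes with mean FPKM of at least 20 and values above 0 in every library, the median span was 1.07-fold.

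**Figure D1:**
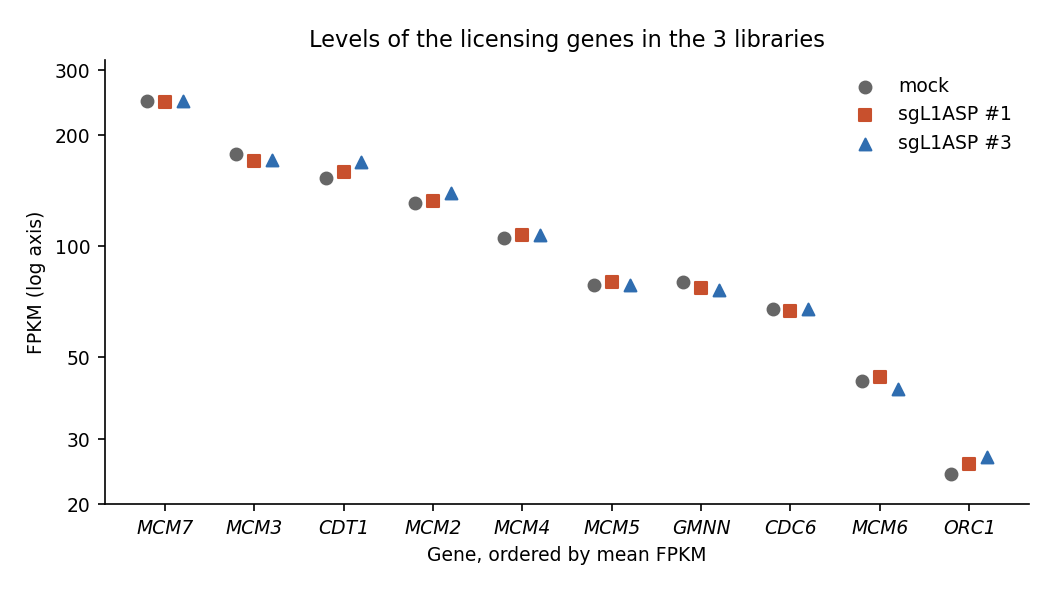
FPKM (log axis) of the 10 licensing genes, ordered by mean FPKM, with 1 point per library (circle, mock; square, sgL1ASP #1; triangle, sgL1ASP #3). The points of a gene lie close together, within 1.11-fold, while MCM7 and ORC1 stand at the ends of a range from 248 to 24.2 in mock.

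The 6 MCM genes code for the subunits of a ring in which each protein occurs in equal number, but their mRNA levels did not come in equal amounts. MCM7 (chromosome 7 of GRCh37, 99689856 to 99699563) codes for a subunit of the ring's helicase-active part and had the highest FPKM, with 248, 246 and 248. MCM3 (chromosome 6, 52128812 to 52149679), the subunit that docks the ring to the loaded origin complex, followed with FPKM 178, 171 and 171. MCM2 (chromosome 3, 127317253 to 127341279), which also binds histones, had 131, 132 and 139. These 3 subunits were the most abundant of the 6 in every library.

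MCM4 (chromosome 8, 48872745 to 48890720), a target of the origin-firing kinase DDK, had FPKM 105, 107 and 107. MCM5 (chromosome 22, 35796127 to 35821424), which forms with MCM2 the gate of the ring, had 78.8, 80.2 and 78.6. MCM6 (chromosome 2, 136597196 to 136634013), the subunit that contacts CDT1, was the lowest with 43.2, 44.3 and 41.1. The ratio of the highest to the lowest level of the 6, MCM7 to MCM6, was 5.73 in mock (95% interval 5.42 to 6.06), 5.55 in sgL1ASP #1 (5.25 to 5.86) and 6.05 in sgL1ASP #3 (5.68 to 6.43). The mean over the 6 subunits was 130.6, 130.1 and 130.9, so the sum of the helicase mRNAs hardly differed between libraries.

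Among the loaders, CDT1 (chromosome 16, 88870197 to 88875666) had a level between those of MCM3 and MCM2 in every library. Its FPKM of 153, 159 and 169.5 was highest in the sgL1ASP #3 library. CDC6 (chromosome 17, 38444131 to 38460909) had 67.6, 66.9 and 67.7, nearly the same in all. ORC1 (chromosome 1, 52838501 to 52870095), the ORC subunit that is degraded in S phase, was the lowest of the 10 with 24.2, 25.7 and 26.8. GMNN (chromosome 6, 24775159 to 24786327), the inhibitor of CDT1, had 79.8, 77.2 and 76.3, with its lowest value in the sgL1ASP #3 library.

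The order of the 10 levels was the same in the 3 libraries except for MCM5 and GMNN, from MCM7 over MCM3, CDT1, MCM2 and MCM4 to CDC6, MCM6 and ORC1. MCM5 and GMNN exchanged places, with a ratio of 0.987 in mock (95% interval 0.914 to 1.07), 1.04 in sgL1ASP #1 (0.962 to 1.12) and 1.03 in sgL1ASP #3 (0.946 to 1.12), so that they did not differ beyond counting error in any library. MCM3 and CDT1 were apart in mock, with a ratio of 1.16 (1.12 to 1.21), and within counting error of each other in sgL1ASP #3, with 1.01 (0.966 to 1.06). The other neighbours in this order were apart by more than counting error in each library. Lengths enter these ratios through the authors' annotation, and an error in a gene's length would shift its level alike in all 3 libraries.

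Against mock, 0 of the 10 genes passed a 1.5-fold threshold with sgL1ASP #1, where 3.23% of the 12727 genes tested (mean FPKM of at least 1 and a ratio) did so in either direction. The study used this fold differently, for higher values only and joining sgL1ASP #1 to sgL1ASP #3 with sgL1ASP #3 to mock, whereas here each pair of libraries was read on its own and in both directions. With sgL1ASP #3 it was 0 of 10 against 3.48% of 12718, and between the guides 0 of 10 against 3.34% of 12718. Most of the genes past the threshold had low values, and among genes with mean FPKM of at least 20, the range of the licensing genes, the shares were 0.918%, 0.876% and 0.854%. The median log2 ratio of the 10 genes was 0.021 with sgL1ASP #1 and 0.0023 with sgL1ASP #3, beside 0.0010 and 0.0019 for all genes tested. With either guide, 6 of the 10 were above mock, as were 50.3% of all genes tested with sgL1ASP #1 and 50.6% with sgL1ASP #3 (55.1% and 56.5% at mean FPKM of at least 20). When all libraries were instead brought to an equal sum of FPKM, 0 of 10 with sgL1ASP #1 and 2 of 10 with sgL1ASP #3 were above mock, and this rescaling moved the median of all genes tested to -0.093 and -0.12. On that scale 24.8% and 20.7% of all genes tested were above mock, so the directions of these small differences depend on the scaling.

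With sgL1ASP #1, the log2 ratios to mock lay between -0.061 for MCM3 and 0.087 for ORC1. The counting interval left out 0 for 1 of the 10 genes, MCM3, at -0.12 to -0.0056. The same was true of 17.2% of 10976 genes for which reads could be estimated, and of 21.7% of those with mean FPKM of at least 20. CDT1 stood at 0.056 (-0.0074 to 0.12) and GMNN at -0.049 (-0.18 to 0.087), both within counting error. With equal sums of FPKM, which lowered all genes, the intervals of 6 of the 10 left out 0, all below mock (MCM2, MCM3, MCM4, MCM7, CDC6 and GMNN). The median of all genes tested was -0.093 on that scale. The share of all genes with such intervals was not computed there, so this count has no background.

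With sgL1ASP #3, the ratios spread a little wider, from -0.073 for MCM6 to 0.15 for ORC1. CDT1 was 1.11-fold of mock, a log2 ratio of 0.15 (0.083 to 0.21), and ORC1 was also 1.11-fold of mock, with an interval of -0.0019 to 0.30. MCM2 was 1.06-fold of mock, at 0.090 (0.028 to 0.15). Intervals left out 0 for 2 of the 10 genes, CDT1 and MCM2, beside 15.7% of 10975 genes and 18.9% of those with mean FPKM of at least 20. With equal sums of FPKM, both calls were lost, with CDT1 at 0.028 (-0.037 to 0.094) and MCM2 at -0.029 (-0.091 to 0.033). ORC1 stood at 0.029 (-0.12 to 0.18) on that scale. The intervals of the other 7 genes then lay below 0, where the median of all genes tested was -0.12. For all genes, the share of such intervals on that scale was not computed. Past 1.1-fold, a threshold chosen after the values were seen, were 2 of 10 genes, CDT1 and ORC1, against 35.4% of all genes tested and 16.6% of those with mean FPKM of at least 20. With sgL1ASP #1 it was 0 of 10, against 35.2% and 17.3%.

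Between the guides, MCM6 was 1.08-fold higher in sgL1ASP #1 than in sgL1ASP #3, a log2 ratio of 0.11 (0.0037 to 0.22). CDT1 was lower in sgL1ASP #1 by a log2 ratio of -0.092 (-0.16 to -0.027), and MCM2 by -0.073 (-0.14 to -0.011). With equal sums of FPKM the intervals of MCM6 and CDT1 still left out 0, and that of MCM2, at -0.047 (-0.11 to 0.015), did not. The share of all genes on that scale was not computed. As deposited, the intervals of these 3 of 10 genes, MCM6, CDT1 and MCM2, left out 0. So did those of 15.0% of all genes with estimated reads and 19.5% of those with mean FPKM of at least 20. Past 1.1-fold were 0 of 10 genes, against 35.2% of all genes tested and 16.7% of those with mean FPKM of at least 20. The comparisons share libraries, so a high value in sgL1ASP #3 appears in both of those that use it.

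**Figure D2:**
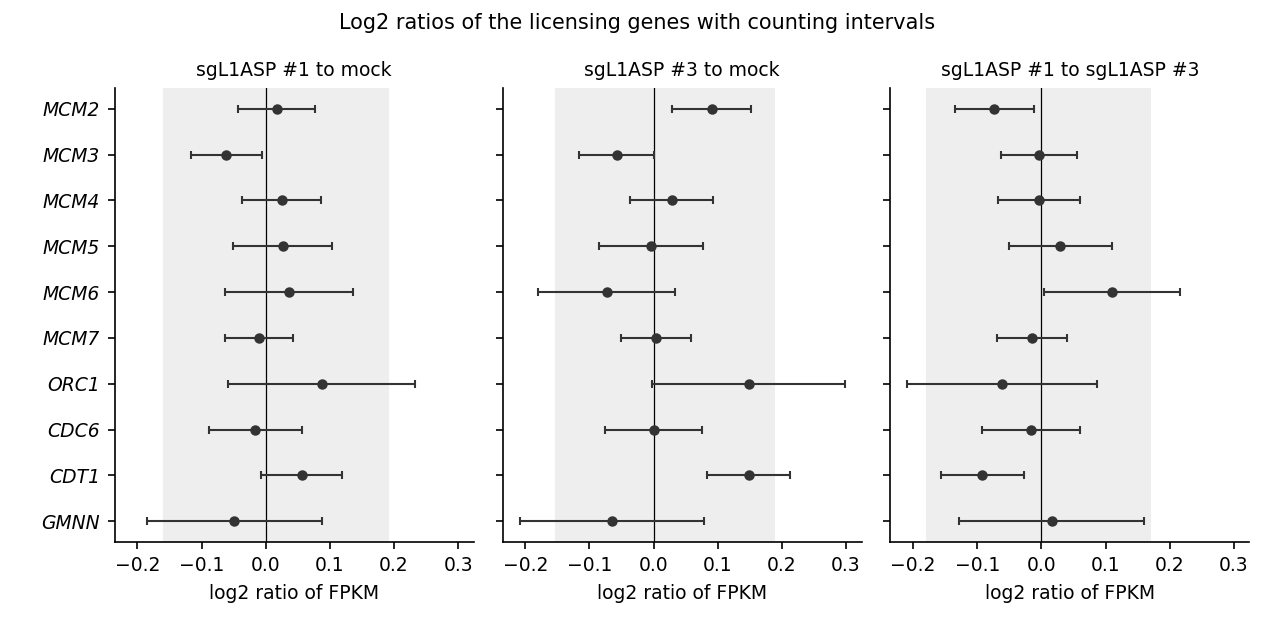
Log2 ratio of FPKM of the 10 licensing genes in the 3 comparisons, with 95% intervals from estimated reads (counting error only). The grey band spans the 5th to 95th percentile of genes with mean FPKM of at least 20. Every point lies inside the band, and CDT1 with sgL1ASP #3 is the interval farthest from 0, at 0.083 to 0.21.

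The balance of CDT1 and its inhibitor was followed as the ratio of their levels within a library, which no rescaling can move. CDT1 to GMNN was 1.92 in mock (95% interval 1.78 to 2.06), 2.06 in sgL1ASP #1 (1.91 to 2.22) and 2.22 in sgL1ASP #3 (2.05 to 2.41). Against mock the log2 ratio was 0.10 (-0.045 to 0.26) higher with sgL1ASP #1, which is within counting error, and 0.21 (0.056 to 0.37) higher with sgL1ASP #3. The direct difference between the guides was -0.11 (-0.27 to 0.050). With sgL1ASP #3 the log2 ratio also moved by -0.21 (-0.29 to -0.12) for MCM3 to CDT1, by -0.15 (-0.25 to -0.048) for CDC6 to CDT1 and, with no part of CDT1, by -0.22 (-0.41 to -0.037) for MCM6 to ORC1. With sgL1ASP #1, MCM3 to CDT1 moved as well, by -0.12 (-0.20 to -0.033), the only pair compared to do so beyond counting error. The other pairs compared stayed within counting error with sgL1ASP #3. Among these were CDT1 to MCM2 at 0.058 (-0.032 to 0.15) and ORC1 to CDC6 at 0.15 (-0.020 to 0.32). Between the guides, intervals left out 0 for MCM3 to CDT1 at 0.088 (0.00084 to 0.18) and MCM7 to MCM6 at -0.12 (-0.24 to -0.0048). The same held for MCM2 to MCM5 at -0.10 (-0.21 to -0.0010). The pairs compared were neighbours in the order of levels and some further chosen pairs, and those with CDT1 share its value. The share of all gene pairs with such intervals was not computed. The pair of CDT1 and GMNN was chosen for its role with earlier values of these libraries known, and the spread between replicate cultures was not measured.

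The rest of the licensing machinery was followed through the other subunits and partners. Of the other 5 ORC subunits and the ORC partner LRWD1, 0 of 6 passed 1.5-fold in any comparison, and their median log2 ratio was -0.058 with sgL1ASP #1 and -0.021 with sgL1ASP #3. LRWD1 had the highest level of these, with FPKM 45.95, 44.1 and 44.8. ORC4, an ATPase subunit of the complex, had the lowest with 6.53, 6.23 and 6.60. ORC1, at 24.2 to 26.8, thus lay between them. Of 7 relatives and partners of the helicase or geminin, 6 had mean FPKM of at least 1 and 0 passed 1.5-fold. MCM3AP, named for its binding to MCM3, was the highest with 42.8, 41.8 and 41.6, and the geminin relative GMNC was listed at 0 in every library.

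CDT1 is removed in S phase through the ubiquitin ligases SCF with SKP2 and CRL4 with DTL. Of 7 genes for its turnover and restraint, 0 passed 1.5-fold, with medians of 0.033 and 0.063 with sgL1ASP #1 and sgL1ASP #3. DDB1, the adaptor of CRL4, had FPKM 118.6, 116.6 and 123.8, and FBXO31, another receptor of CDT1, had 11.76, 12.95 and 11.59. SKP2 had 43.7, 44.8 and 44.7, within counting error of each other. The intervals against mock left out 0 for 1 of the 7 with sgL1ASP #1, the scaffold CUL4B at 0.18 (0.086 to 0.28), and for 3 of the 7 with sgL1ASP #3, all above mock. These were CUL4B at 0.12 (0.022 to 0.23), DDB1 at 0.063 (0.0039 to 0.12) and cyclin A2 (CCNA2), which restrains CDT1 through its kinase, at 0.22 (0.083 to 0.35). Of all genes with estimated reads, 17.2% with sgL1ASP #1 and 15.7% with sgL1ASP #3 had such intervals (21.7% and 18.9% at mean FPKM of at least 20). With equal sums of FPKM, which lowered all genes, all of these calls were lost, and DDB1 stood at -0.057 with sgL1ASP #3. On that scale 2 of the 7 were above mock with either guide, where it was 5 of 7 as deposited.

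The genes that act after licensing were compared next. Of 14 origin firing genes, 0 passed 1.5-fold, and their medians were 0.023 with sgL1ASP #1 and -0.044 with sgL1ASP #3, and 8 and then 6 of them stood above mock. GINS2, a part of the GINS complex that activates the loaded MCM ring, was the highest with FPKM 114.0, 122.1 and 119.6. DBF4, the activator of the firing kinase CDC7, was the lowest with 5.50, 5.75 and 5.05. Of 24 replication fork genes, 0 passed 1.5-fold, with medians of -0.034 and -0.043 and with 6 and 10 genes above mock, 25% and 41.7% beside the 50.3% and 50.6% of all genes tested. With equal sums of FPKM 4 and 1 of the 24 were above mock, beside 24.8% and 20.7% of all genes, and 2 and 1 of the 14 firing genes. PCNA, the sliding clamp, had 278, 271 and 261, higher than any licensing gene, and WDHD1, a polymerase alpha adaptor, had 12.44, 11.62 and 13.03. All 24 fork genes and all 14 firing genes had mean FPKM of at least 1.

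Of 13 E2F regulators, which are the E2F factors, their TFDP partners and RB1 with its relatives RBL1 and RBL2, 0 passed 1.5-fold. Their medians were 0.014 and 0.056. TFDP1, the partner of the E2F proteins, was the highest with FPKM 76.1, 76.8 and 81.1. The repressor E2F6 was the lowest with 6.96, 6.27 and 7.53, and its intervals held 0 against mock with both guides. Over the 70 listed genes of these 6 lists with mean FPKM of at least 1, 0 passed 1.5-fold in any of the 3 comparisons. Of these, 32 (45.7%) were above mock with sgL1ASP #1 and 36 (51.4%) with sgL1ASP #3, beside 50.3% and 50.6% of all genes tested (55.1% and 56.5% at mean FPKM of at least 20). With equal sums of FPKM it was 12 (17.1%) and 6 (8.57%), beside 24.8% and 20.7% of all genes tested (18.9% and 14.3% at mean FPKM of at least 20). As deposited, the counting intervals of 9 of the 70 left out 0 with sgL1ASP #1 and those of 14 with sgL1ASP #3 (12.9% and 20%), beside the 17.2% and 15.7% of all genes given above. Of these, 5 of the 9 and 8 of the 14 lay above mock. By list, with sgL1ASP #1 and then sgL1ASP #3, it was 5 and 6 of 24 fork genes and 1 and 1 of 14 firing genes. For the E2F regulators it was 0 and 3 of 13, and for the other ORC subunits with LRWD1 0 and 0 of 6. For the relatives and partners of the helicase or geminin it was 2 and 1 of 6.

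**Figure D3:**
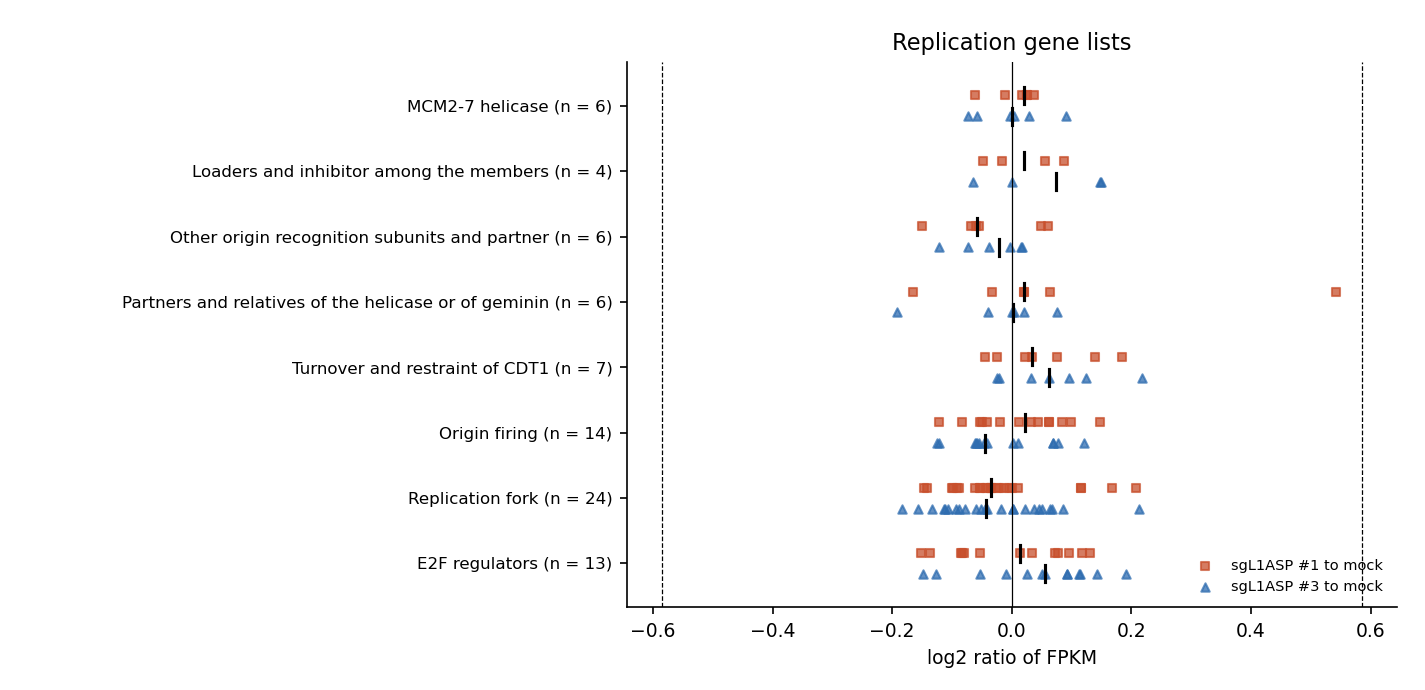
Log2 ratio of FPKM to mock for the genes of 8 replication lists with mean FPKM of at least 1 (square, sgL1ASP #1; triangle, sgL1ASP #3), with black ticks at the medians and dashed lines at 1.5-fold. All points lie inside the dashed lines, and the medians lie between -0.058 and 0.074.

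The 3 genes of the other lists whose pair of log2 ratios to mock lay nearest to the medians of the 10 licensing genes were MCM9, TOPBP1 and SKP2, among 64 genes with mean FPKM of at least 10. The likeness is a distance on the log2 scale over 3 libraries, 0.0013 for MCM9, 0.0080 for TOPBP1 and 0.032 for SKP2. MCM9, an MCM relative that acts in DNA repair, had FPKM 14.3, 14.5 and 14.3. TOPBP1, which helps to assemble the active helicase, had 32.4, 32.7 and 32.4.

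Some licensing genes share their start region with a neighbour, which gives another measured gene at the same place. The start of MCM4 lies 805 bases from that of PRKDC, the catalytic subunit of a DNA repair kinase, on the other strand, the start of ORC1 lies 179 bases from that of the splicing factor PRPF38A, and that of MCM7 lies 246 bases from AP4M1, an adaptor subunit of vesicle transport. PRKDC had FPKM 63.4, 60.8 and 60.0. PRPF38A had 37.63, 37.03 and 37.74, and AP4M1 had 10.7, 10.9 and 10.2. For PRPF38A the log2 ratio with sgL1ASP #3 was 0.0040, beside 0.15 (-0.0019 to 0.30) for ORC1. For PRKDC it was -0.079, beside 0.028 (-0.036 to 0.092) for MCM4. The intervals of ORC1 and MCM4 held 0, and none was computed for the neighbours, so whether the pairs differ beyond counting error was not tested. The annotated span of AP4M1 overlaps that of MCM7 on the opposite strand, and the authors ran the counting in a strand-specific mode.

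MCM7 is also the host of a microRNA cluster, whose hairpins MIR106B (chromosome 7, 99691616 to 99691697), MIR93 (99691391 to 99691470) and MIR25 (99691183 to 99691266) lie in intron 13 of the 14 introns of its main transcript, on the same strand. Their main mature forms from RefSeq are printed with the seed, bases 2 to 8, in capitals, because these letters show which members share a seed and are known as a group to act on cell cycle genes.
hsa-miR-106b-5p: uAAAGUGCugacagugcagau
hsa-miR-93-5p: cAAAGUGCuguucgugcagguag
hsa-miR-25-3p: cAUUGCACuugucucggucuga
The first and second share the seed AAAGUGC, while miR-25-3p has AUUGCAC. MIR93 and MIR106B were listed at 0 in all 3 libraries, whereas the entry MIR25 had FPKM 756, 766 and 2734, the last far above the others. Its log2 ratio was 0.019 with sgL1ASP #1 and 1.85 with sgL1ASP #3, and it was the only gene of all lists past 1.5-fold. The hairpin has 84 bases, less than the 200 bases assumed for a fragment, so neither its number of reads nor an interval could be estimated, and in poly(A) libraries the entry does not measure the mature microRNA. The host itself had a log2 ratio of 0.0040 (-0.051 to 0.059) with sgL1ASP #3.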

How the data were processed

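The authors prepared stranded mRNA libraries from 293T cells, 1 per condition, sequenced them in 75-base single-end mode and mapped the reads to hg19 with TopHat2 2.0.13, Bowtie2 2.2.3 and SAMtools 0.1.19. They deposited 1 FPKM per gene name, calculated with Cuffdiff of Cufflinks 2.2.1. The gene annotation and the scaling between libraries are not given in the sources used here.

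FPKM were used as deposited, and log2 ratios had no pseudocount. Genes with mean FPKM of at least 1 and a ratio were tested against a 1.5-fold threshold. Gene lists were fixed by function, and 2 older names (IDAS for MCIDAS and C15orf42 for TICRR) were matched through RefSeq. The members and lists were chosen with earlier results of these data known. The genes named are the 10 licensing genes, listed genes past 1.5-fold, the highest and lowest of each list, and the 3 most alike; POLD2, KAT7, MCIDAS, CUL4B, CCNA2 and SNORD28 were named after their values were seen. Outside this rule, MIR106B was named as a member of the MCM7 cluster, and PRKDC, PRPF38A and AP4M1 as neighbours whose start lies within 1 kb of a licensing gene's start.

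Reads were estimated from genes with 1 GENCODE 44 transcript on GRCh37 longer than 1000 bases, less a fragment of 200 bases, at the library size where values of 1, 2 and 3 reads were together densest (955, 1001 and 954 genes with FPKM above 0 in mock, sgL1ASP #1 and sgL1ASP #3). Reads of a gene use its canonical transcript. The density peak itself held only 27, 44 and 35 of these genes, so the estimates are rough. Simulated reads for the estimator obeyed its own length and spacing assumptions and so do not test these. The fold rule was tested on simulated data that stand for no pair of these libraries. Reads were drawn with counting error only from the mean FPKM of 12830 genes, with the same length and depth for all. Of 200 genes raised 2-fold, 99.5% passed 1.5-fold upward, as did 122 unchanged genes. Unchanged genes past the threshold downward were not counted, although the rule used here reads both directions. Promoter and microRNA sequences are from RefSeq on GRCh38.p14 and were placed on GRCh37 by their letters or annotation. Python 3.11.15, NumPy 2.4.6, pandas 2.3.3 and matplotlib 3.10.9 were used.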

Additional observations from a re-analysis of the deposited data

How the results depend on the processing

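The number of licensing genes past 1.5-fold was 0 of 10 in each comparison, and it was 0 with pseudocounts of 0.1 and 1, with each rescaling, with each filter and with thresholds of 2 and 1.2. With a threshold of 1.1, chosen after the values were seen, it was 2 with sgL1ASP #3 to mock and 0 in the other comparisons. Bringing all libraries to an equal sum of FPKM turned the median log2 ratio of the 10 genes to -0.073 with sgL1ASP #1 and -0.12 with sgL1ASP #3, as it did that of all genes; the intervals and list counts on that scale were added after the values were seen. In the FPKM sum, SNORD28 made up 3.20% of sgL1ASP #1 and 1.86% of sgL1ASP #3 and was listed at 0 in mock. With the median ratio these medians were 0.021 and -0.00091, the latter with its sign turned, and 6 and 5 of the 10 genes were above mock. With the upper quartile they were 0.034 and 0.014, with 7 and 7 above. Between the guides the median was -0.0091 as deposited and 0.017 with equal sums.

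For sgL1ASP #1 to mock, sgL1ASP #3 to mock and sgL1ASP #1 to sgL1ASP #3, the share of all genes past the threshold was 0.974%, 0.991% and 1.05% at 2-fold, 14.5%, 15.2% and 14.8% at 1.2-fold, and 35.2%, 35.4% and 35.2% at 1.1-fold. It was 2.11%, 2.19% and 2.19% with FPKM of at least 1 in every library, and 11.9%, 11.97% and 11.8% with no filter. With a pseudocount of 1 it was 1.89% and 1.995% for the guides against mock, and with equal sums of FPKM 5.43% for sgL1ASP #3 to mock.

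With the full transcript length, the estimated depth was 9600000, 9500000 and 8200000 reads in mock, sgL1ASP #1 and sgL1ASP #3. Depth limits the genes of low level most, since ORC1 had about 734, 773 and 681 reads and MCM7 about 5839, 5741 and 4898. No paired analysis was possible because only 1 library exists for every condition.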

Other observations

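Among the 70 listed replication genes outside the 10 licensing genes, 1 (POLD2, a subunit of DNA polymerase delta) was more than 1.1-fold above mock with both guides and 1 (KAT7, the histone acetyltransferase HBO1) more than 1.1-fold below it. Of all 12701 genes with both ratios, 8.27% were above and 8.39% below by that much with both guides, and of 4554 with mean FPKM of at least 20 it was 4.02% and 2.17%, so these counts are no larger than the background. The comparisons share the mock library. POLD2 had log2 ratios of 0.21 and 0.21 with sgL1ASP #1 and sgL1ASP #3, which became 0.11 and 0.093 with equal sums of FPKM, under 1.1-fold. KAT7 had -0.17 and -0.19, which became -0.26 and -0.31. The point farthest to the right in the plot of replication gene lists is MCIDAS, a geminin relative, with FPKM 2.41, 3.51 and 2.42 in mock, sgL1ASP #1 and sgL1ASP #3, a log2 ratio of 0.54 (95% counting interval 0.014 to 1.07) with sgL1ASP #1 and about 49 reads in mock. With equal sums of FPKM the log2 ratio of MCIDAS became 0.45 and its interval no longer left out 0, and with a pseudocount of 1 the ratio was 0.40. These genes were picked after their values were seen.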
